A study of Homo sapiens with 6 samples.

Results

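The 36 genes described here encode nuclear subunits of respiratory complex I and were measured in SEM, a human cell line established from acute lymphoblastic leukaemia of B-cell precursors, with the KMT2A::AFF1 fusion. In the knock-down group (KD, 3 libraries) the cells had received 2 Dicer-substrate siRNAs (DsiRNAs) placed on the back-splice junction of AK_8_2, a circular RNA of the fusion gene. The control group (NC, 3 libraries) had received a commercial non-targeting duplex. All 6 samples are of this 1 line and had the same lipid transfection, performed 2 times, 24 h apart. The members were chosen by symbol: the deposited tables list 62703 gene IDs, 36 of 36 symbols were found, each under 1 ID, and all 36 passed the filter on low counts that left 16929 genes. How far AK_8_2 was silenced is not measured by counts per gene. In these bulk samples a lower count cannot tell fewer expressing cells from less RNA per cell.

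Complex I, the NADH:ubiquinone oxidoreductase, is the entry point of electrons from NADH into the respiratory chain and pumps protons across the inner mitochondrial membrane. It is L-shaped: a peripheral arm in the matrix oxidises NADH and passes electrons along iron-sulphur clusters to ubiquinone, and a membrane arm holds the proton channels. Core subunits, conserved from bacteria, do the catalysis. The core of the membrane arm is encoded by mitochondrial DNA, and accessory subunits, all nuclear, surround both arms and are needed for assembly and stability. The members were grouped by these roles into 6 core subunits of the peripheral arm, 9 accessory subunits of the peripheral arm, 20 accessory subunits of the membrane arm, and NDUFAB1, the acyl carrier protein, which sits in both arms.

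Counts assigned to genes totalled 14750579 to 26694160 per library, of which the members took 38582 to 76245 counts, or 0.262% to 0.286%. Replicate 1 differed from the others in each group. No annotated feature held 50.03% of its records in KD and 48.6% in NC, against 11.3% to 17.3% in the remaining 4 libraries. Genes with at least 1 count numbered 53121 in KD replicate 1 and 52077 in NC replicate 1, against 30641 to 32311 in those 4 libraries. In KD replicate 3, 31.5% of the records had several alignments and mitochondrial ribosomal RNA took 6.79% of the gene counts, against at most 17.3% and 1.34% in the others. Of 8 B-cell precursor markers, 7 were at or above 1 CPM (counts scaled to library size) in every library, PAX5 the highest, and DNTT reached 1.74 CPM in NC replicate 1 and was below 1 CPM in the other 5 libraries. Of 12 markers of T, myeloid, erythroid, fibroblast and epithelial cells, 10 fell below 1 CPM in at least 1 library; together they summed to 10.6 to 39.7 CPM in KD and 9.40 to 37.7 CPM in NC, against 1442 to 1956 CPM in KD and 1493 to 1968 CPM in NC for the B-cell list. The highest sum of the 12 was in replicate 1 of each group.

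A short motif recurred near the start sites of the members. RefSeq (GRCh38.p14) windows, of 250 bases before to 50 after each start, were found for 32 of the 36 members. For a member the window nearest its gene start in GENCODE 29 was taken. For tested protein-coding genes the first listed window per symbol was taken, so the shares here and below rest on unlike choices of start. The motif AANATGGC, the core of sites bound by the factor YY1, occurred on either strand in 12 of these 32 windows (37.5%), against 10.4% of 10006 windows of tested protein-coding genes and 6.58% of all 35116 windows. In 10 of the 12 the match began between bases 9 and 43 after the start, with bases counted from 1 at the start itself. In 8 of the 12, all 5 printed here among them, the ATG inside the match is an annotated start codon of the gene in GENCODE 29, so these letters are also the translation start. These 30-base stretches show it in 5 members of both arms, with the motif in capitals, 5′ to 3′ on the gene's strand:

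NDUFS4 (chr5:53560649-53560678, plus strand): ttgcctgcagcAAGATGGCggcggtgtcaa

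NDUFS7 (chr19:1383913-1383942, plus strand): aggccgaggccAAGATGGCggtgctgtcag

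NDUFA9 (chr12:4649113-4649142, plus strand): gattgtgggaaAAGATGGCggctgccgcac

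NDUFA3 (chr19:54102865-54102894, plus strand): ccgcggagacaAAGATGGCtgcgagtaagt

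NDUFA7 (chr19:8321343-8321372, minus strand): atcgcggacggAAGATGGCgtccgccaccc

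Other motifs were nearer the share of tested coding genes. The core motif of NRF1, a regulator of genes for mitochondrial proteins, was found on either strand in 6 of 32 windows (18.8%, against 11.9%). CCGGAAG, of ETS factors, was found in 5 (15.6%, against 19.8%), GGGCGG, of SP1, in 21 (65.6%, against 69.9%) and TATAAA, the TATA box, in 3 (9.38%, against 5.72%). NDUFA3, the member with the smallest p in the comparison that takes replicate numbers into account, carries 2 NRF1-type matches in the 200 bases before its start, in capitals here:

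NDUFA3 (chr19:54102655-54102854, plus strand): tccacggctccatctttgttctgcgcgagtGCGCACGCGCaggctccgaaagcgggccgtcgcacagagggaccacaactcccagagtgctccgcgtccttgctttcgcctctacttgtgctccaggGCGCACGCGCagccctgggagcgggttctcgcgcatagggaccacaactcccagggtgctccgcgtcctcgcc

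These matches describe letters and do not show binding. The members lie on 18 chromosomes, with 6 on chromosome 19 and 4 on chromosome 11. Of the 36, 9 (25%) start head to head with another protein-coding gene, within 1000 bases upstream and on the opposite strand, against 9.98% of tested protein-coding genes. The partners include genes of mitochondrial ribosomal proteins in 2 cases, MRPL36, 34 bases from NDUFS6, and MRPL47, 36 bases from NDUFB5.

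Levels of different members were compared as CPM per kilobase of merged exons in GENCODE 29, below called the level, as means ± SD over all 6 libraries. The levels of the messenger RNAs covered a wide range, from 276 ± 32.0 for NDUFS5 to 1.00 ± 0.312 for NDUFA7. The length used bears on them: with the longest transcript in place of merged exons, 17 members had levels over 1.5 times as high, up to 2.88 times for NDUFV2, so the orders below hold for merged exons.

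**Figure D1:**
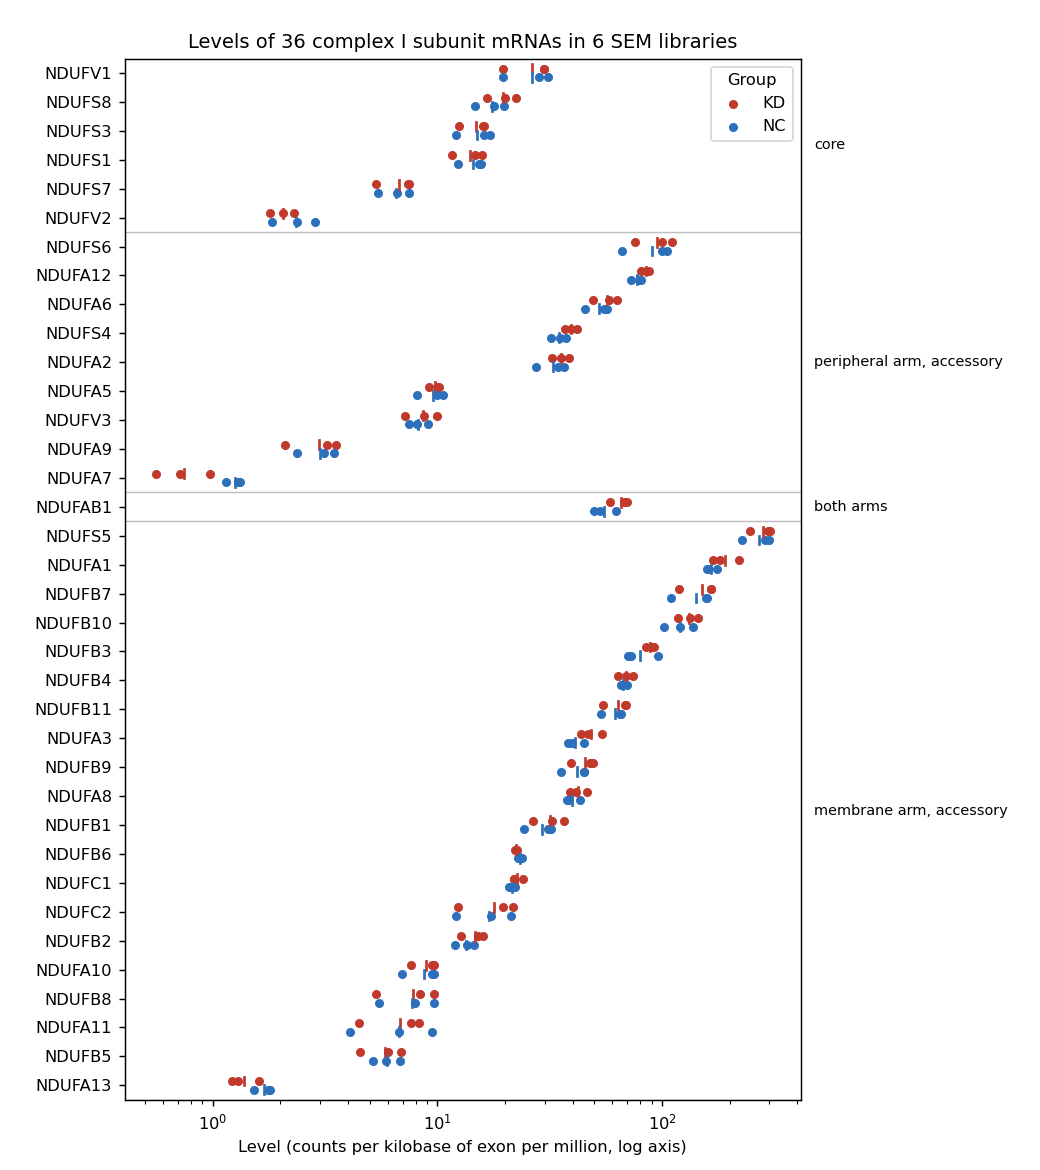
Level of each member (x axis, CPM per kilobase of exon, log scale) in each of the 6 libraries, by role and then by mean level; points are libraries, KD above NC in each row, and vertical ticks are group means (n = 3). Differences between members are much wider than those between KD and NC, and NDUFA7 is the lowest member.

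Among core subunits, NDUFV1, which binds FMN and oxidises NADH, had the highest level at 26.4 ± 5.30. NDUFS8, an iron-sulphur subunit next to the ubiquinone site, followed at 18.6 ± 2.75. NDUFS3 stood at 14.96 ± 2.14 and NDUFS1, the largest subunit, with several iron-sulphur clusters, at 14.2 ± 1.77. NDUFS7, which holds the cluster that reduces ubiquinone, had 6.63 ± 1.01. NDUFV2, which carries an iron-sulphur cluster beside NDUFV1 in the NADH-oxidising end, had 2.20 ± 0.390, the lowest of the core.

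Among accessory subunits of the peripheral arm, NDUFS6, a zinc-binding protein, was highest at 92.8 ± 17.6, followed by NDUFA12 at 80.8 ± 5.33. With the longest transcript as length the order was reversed, with 180.3 for NDUFA12 and 124.5 for NDUFS6. NDUFA6, a protein of the LYR family that docks the acyl carrier protein, had 54.6 ± 6.29. NDUFS4, a subunit known for mutations in Leigh syndrome, had 37.1 ± 3.33, and NDUFA2, of thioredoxin-like fold, 34.1 ± 3.80. Lower levels were found for NDUFA5 (9.64 ± 0.878), NDUFV3 (8.43 ± 1.06), NDUFA9, which binds a nucleotide cofactor near the junction of the arms (2.97 ± 0.592), and NDUFA7 (1.00 ± 0.312). NDUFAB1, in both arms, had 60.2 ± 7.84.

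By merged exon length the membrane arm held the 4 highest members; by the longest transcript NDUFA12 of the peripheral arm came second, after NDUFS5. NDUFS5, a small protein on the intermembrane space side, was followed by NDUFA1 at 177 ± 22.8, encoded on the X chromosome. NDUFB7 (146 ± 24.6) and NDUFB10 (126 ± 15.3), both proteins with disulphide-bonded cysteine pairs, came next. NDUFB3, NDUFB4 and NDUFB11 had 84.1 ± 10.4, 68.0 ± 3.64 and 62.6 ± 6.84. Next were NDUFA3 at 44.5 ± 5.72, NDUFB9, a second LYR protein, at 43.7 ± 5.32, NDUFA8 at 41.0 ± 3.28 and NDUFB1 at 30.4 ± 4.32. NDUFB6 (22.8 ± 0.591), NDUFC1 (22.05 ± 1.13), NDUFC2 (17.4 ± 4.32) and NDUFB2 (14.0 ± 1.49) lay in the lower middle. NDUFA10, with the fold of a nucleoside kinase, had 8.81 ± 1.195, NDUFB8 7.76 ± 1.94, NDUFA11 6.79 ± 2.15 and NDUFB5 5.90 ± 0.912. NDUFA13, also called GRIM-19, had 1.54 ± 0.238.

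The order was stable between libraries at its large steps and less so between neighbours. Compared within each library, 15 of the 35 pairs of neighbours in the order kept it in all 6 libraries. Of the 35 pairs, 31 had ranges over the 6 libraries that overlapped. The 4 that did not were NDUFS5 over NDUFA1, NDUFB2 over NDUFA5, NDUFB5 over NDUFA9 and NDUFV2 over NDUFA13. Across the 36 members the log2 levels of any 2 libraries correlated with Pearson's r of 0.981 to 0.999, given as a description, since the genes' lengths and annotation are shared by all libraries.

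The lowest 4 members had a feature of the annotation in common, but the levels of members with and without it overlapped. In 7 members, most of the coding sequence of the principal annotated form also lies in an exon of another listed gene on the same strand: all of it in NDUFA7 and NDUFV2, 98.4% in NDUFA13, 86.8% in NDUFC2, 85.1% in NDUFA9, 83.9% in NDUFB8 and 74.0% in NDUFA11. In the other 29 members no coding base is shared on the same strand. The 7 held ranks 22 to 36 of 36, among them the lowest 4 ranks, with levels of 1.00 to 17.4 (median 2.97), against 5.90 to 276 (median 37.1) for the other 29.

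**Figure D2:**
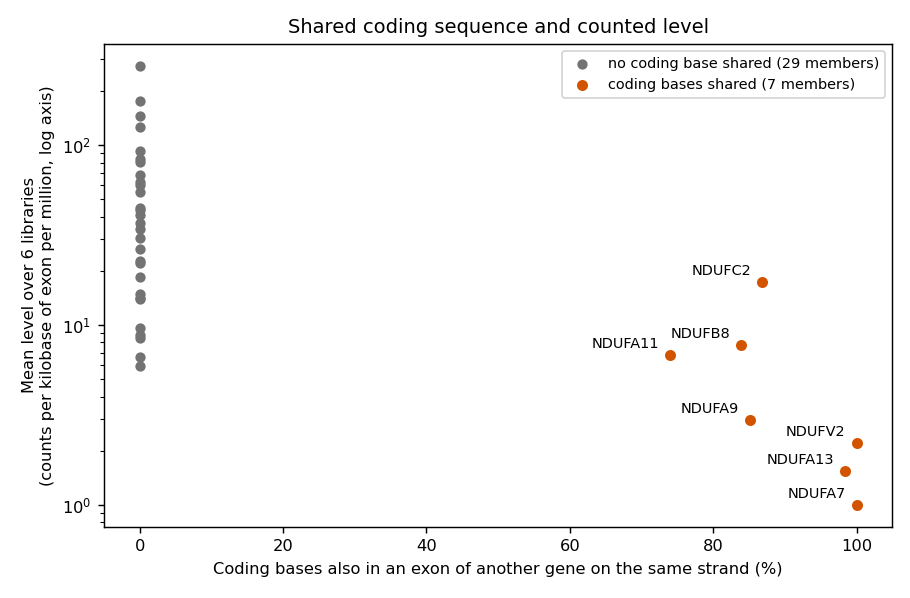
Mean level over 6 libraries (y axis, CPM per kilobase of exon, log scale) against the share of coding bases that also lie in an exon of another listed gene on the same strand (x axis, percent), for the 36 members. The 7 members with shared coding bases lie at 1.00 to 17.4, and the 29 without at 5.90 to 276.

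The same-strand genes that share these coding bases had few counts. NDUFC2-KCTD14, a read-through gene that joins NDUFC2 to its neighbour, had 0 counts in every library, as had the unnamed genes over NDUFA11, NDUFB8 and NDUFV2. Those over NDUFA7 and NDUFA9 had at most 5 counts in a library. The gene over the coding sequence of NDUFA13, ENSG00000258674, had 11 to 32, where NDUFA13 itself had 67 to 112. YJEFN3, also on the same strand, shares 131 exon bases with NDUFA13 but no coding base, and had 214 to 483 counts. A read that overlaps 2 genes can be set aside as ambiguous by the counting program, and 2.58% to 5.94% of the records were in that class, but the counting mode is not given in the sources used here. The counts of these 7 members are therefore uncertain as measures of their messenger RNAs, and how many of their reads were set aside was not tested. A calculation chosen after the data were seen divided CPM by the exon length shared with no other gene on either strand. It left NDUFA7 the lowest, at 1.504, and NDUFA13 next, at 1.94. At the top it put NDUFA1, at 319, above NDUFS5, at 276. The CPM used were those of the whole gene, not of reads in unshared bases alone. The values therefore cannot show whether the messenger RNA of NDUFA7 is low or that of NDUFA1 the highest. These stretches of coding sequence, without the stop codon, are shown for the 2 lowest members. Capitals mark bases that also lie in the overlapping gene (GRCh38; exons joined):

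NDUFA7, bases 1 to 150 of 339 (chr19:8316597-8321358, minus strand): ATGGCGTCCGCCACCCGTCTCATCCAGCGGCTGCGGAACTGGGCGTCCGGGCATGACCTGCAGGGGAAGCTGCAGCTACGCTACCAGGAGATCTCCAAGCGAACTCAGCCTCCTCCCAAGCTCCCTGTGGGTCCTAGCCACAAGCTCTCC

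NDUFA13, the last 150 of 432 bases (chr19:19527738-19528123, plus strand): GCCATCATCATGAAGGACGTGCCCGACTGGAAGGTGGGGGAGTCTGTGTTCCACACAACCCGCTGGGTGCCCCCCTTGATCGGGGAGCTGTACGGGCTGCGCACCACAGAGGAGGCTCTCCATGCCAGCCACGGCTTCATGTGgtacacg

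On the opposite strand, exons of 17 members overlap exons of other genes, by up to 49.1% of the exon length in NDUFS7. Without a known strand setting, reads of such a member and its partner cannot be told apart. NDUFA1 shares 44.5% of its exon length with RNF113A, and NDUFB11 44.9% with RBM10. NDUFA7 shares 89 exon bases, 51 of them coding, with RPS28, which had 5519 to 13352 counts in a library, where NDUFA7 had 15 to 42. In all, 14 members share no exon base with any gene in either direction.

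Levels differed between the libraries numbered 1 and the rest. The mean of KD and NC replicate 1 over the mean of the other 4 libraries was 0.814 at the median of the members, from 0.530 for NDUFA11 to 1.18 for NDUFV2, against a median of 1.01 over all tested genes. The median SD within a group was 0.19 on the log2 scale of CPM, and in 27 members the log2 fold change between KD and NC was smaller than that member's own SD.

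The comparison of KD with NC asks whether silencing of AK_8_2 changed these messenger RNAs. No member passed the test. The edgeR quasi-likelihood test called 0 of 36 members at a Benjamini-Hochberg adjusted p under 0.05 over 16929 genes, against a background of 0.00% of all tested genes, and 0 members had an unadjusted p under 0.05, against 0.307% of all genes. DESeq2 also called 0 members, against 1 of 16929 genes, and had 0 members at an unadjusted p under 0.05, against 51 genes. Summed over the members, the KD libraries had 2519, 2995 and 3107 CPM and the NC libraries 2399, 2793 and 2917 CPM, here and below in the order of replicates 1, 2 and 3. The KD sum was above the NC sum of the same number in each case, while the ranges of the groups overlapped. The 95% interval of the fold change, without the block, lay inside 1.5-fold in either direction for 30 members, and for all 29 whose coding sequence is not shared. The same held for 8589 of 16929 tested genes and for 8309 of 12222 tested nuclear protein-coding genes.

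The estimates leaned to slightly higher values in KD without passing the test. The median log2 fold change was 0.07 over the 36 members, against -0.00 over all tested genes, and 28 members (77.8%) had an estimate above 0, against 48.6% of all tested genes. In the fit without the replicate number the median moved with single libraries: it was -0.034 without NC replicate 1, with 17 of 36 estimates above 0, and 0.01 without KD replicate 3, 0.02 without KD replicate 2, 0.18 without KD replicate 1 and 0.14 without NC replicate 3. Within replicates 1, 2 and 3 the median log2 differences were 0.06, 0.07 and 0.07, with 21, 29 and 25 members higher in KD. In the fit with the replicate number as a block it was 0.05 to 0.07 when each pair was left out. Of the members, 15 (41.7%) were higher in KD in all 3 replicate numbers, against 13.1% of tested genes, and 3 (8.33%) were lower in all 3, against 12.6%.

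The common coefficient of variation in edgeR was 0.372 without the replicate number and 0.0683 with it as a block. Standard errors (SE) and intervals of members, unless the block is named, therefore include the spread between replicate numbers. For NDUFS8 the SE was 0.16 without the block and 0.05 with it. In the edgeR quasi-likelihood test, 52 of 16929 genes had an unadjusted p under 0.05 without the block and 841 with it. Calls of 0 members without the block therefore say little by themselves. With the replicate number as a block, 0 members were called, against 0.171% of tested genes. Again 28 members had an estimate above 0, against 48.0%. At an unadjusted p under 0.05, 10 members (27.8%) were higher in KD, against 2.90% of tested genes, and 1 was lower, against 2.07%. DESeq2 with the block called 0 members, against 27 of 16929 genes. At an unadjusted p under 0.05 it had 4 members higher in KD and 0 lower, against 228 genes in both directions together. Members have short messenger RNAs, with a median of 1295 bases for the longest annotated transcript, against 3734.5 bases for tested protein-coding genes. Over 12222 tested nuclear protein-coding genes the within-replicate difference correlated with this length at Spearman's rho of -0.08, 0.04 and -0.27 in replicates 1, 2 and 3, a description across genes that share libraries. Over the members the same correlation was -0.07, -0.30 and -0.15. With the log2 fold change of the blocked fit it was -0.35 over the members and -0.18 over the coding genes. The part of length, and of KD replicate 3 with its mitochondrial ribosomal RNA, in the members' values was not tested.

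**Figure D3:**
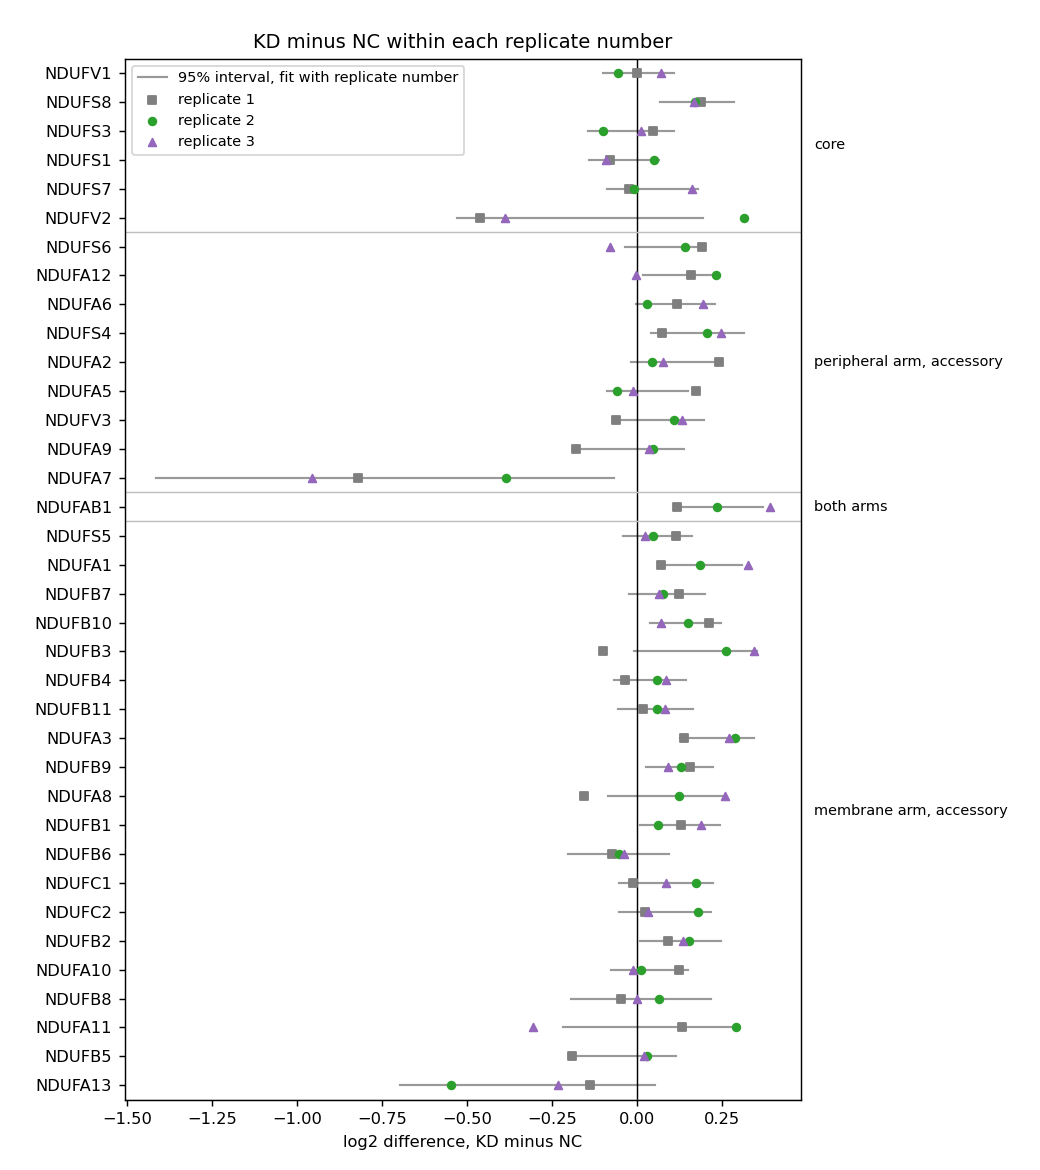
Log2 difference of KD minus NC (x axis) for each member within replicate 1 (squares), 2 (circles) and 3 (triangles); grey lines are 95% intervals of the fit with the replicate number as a block. Of the 36 members, 15 lie above 0 in all 3 replicates, and 3 lie below 0 in all 3: NDUFA7, NDUFA13 and NDUFB6.

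Core subunits were centred near 0. Of the 6, 3 had an estimate above 0, and the median log2 fold change was -0.01. NDUFS8 had 75.4, 90.5 and 101 CPM in KD and 66.2, 80.4 and 89.9 CPM in NC. Each KD library was above the NC library of its number, but the groups overlapped. The log2 fold change was 0.17 (SE 0.16; adjusted p 1.00 in the edgeR quasi-likelihood test). With the block the adjusted p of NDUFS8 in the same test was 0.512. NDUFV1 had 99.0, 150.2 and 151 CPM in KD and 99.1, 156 and 144 CPM in NC, a log2 fold change of 0.00 (SE 0.23), with replicate 1 low in both groups. NDUFV2, 1 of the members with shared coding sequence, had 5.57, 6.25 and 4.88 CPM in KD and 7.71, 5.002 and 6.43 CPM in NC, a log2 fold change of -0.19 (SE 0.25) whose sign differed between replicates.

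Among the 9 accessory subunits of the peripheral arm, 7 had an estimate above 0, with a median of 0.07. NDUFS4 had 46.2, 43.6 and 49.2 CPM in KD and 43.9, 37.8 and 41.4 CPM in NC, so that KD replicate 2 alone fell inside the NC range. Its log2 fold change was 0.18 (SE 0.10; adjusted p 1.00 in the edgeR quasi-likelihood test). With the block the adjusted p of NDUFS4 in the same test was 0.821. NDUFA12 had 159, 154 and 146 CPM in KD and 143, 131 and 146 CPM in NC, a log2 fold change of 0.13 (SE 0.09), with nearly equal values in replicate 3. NDUFS6, the highest of this role by merged exons, had 110, 160 and 145 CPM in KD and 96.3, 145 and 153 CPM in NC, a log2 fold change of 0.07 (SE 0.21).

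NDUFA7 had the lowest estimate of all members. It had 18, 35 and 15 counts in KD and 30, 42 and 37 counts in NC, or 1.01, 1.37 and 0.787 CPM in KD and 1.87, 1.83 and 1.62 CPM in NC. All 3 KD libraries were below all 3 NC libraries, as for 1.77% of tested genes. The log2 fold change was -0.73 (SE 0.42; adjusted p 1.00 in the edgeR quasi-likelihood test; with the block, adjusted p 0.966). The other member without overlap between groups, NDUFB6, differed little: it had 31.4, 30.9 and 30.9 CPM in KD and 33.1, 32.0 and 31.7 CPM in NC, a log2 fold change of -0.05 (SE 0.08; adjusted p 1.00 in the edgeR quasi-likelihood test). It lies outside the naming rule and was chosen after its values were seen. No member had all 3 KD libraries above all 3 NC libraries, as 1.67% of tested genes had.

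NDUFAB1 had the highest estimate of all members. It had 108, 94.0 and 111 CPM in KD and 99.8, 79.9 and 84.7 CPM in NC, a log2 fold change of 0.25 (SE 0.12; adjusted p 1.00 in the edgeR quasi-likelihood test; with the block, SE 0.06 and adjusted p 0.171). KD replicate 2 was below NC replicate 1, so the groups overlapped. Besides its place in complex I, this protein carries the acyl chains of mitochondrial fatty acid synthesis.

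Among the 20 accessory subunits of the membrane arm, 17 had an estimate above 0, with a median of 0.08. NDUFA3 had 108, 116 and 134 CPM in KD and 97.8, 94.8 and 111 CPM in NC, with KD replicate 1 below NC replicate 3. Its log2 fold change was 0.24 (SE 0.12; adjusted p 1.00 in the edgeR quasi-likelihood test; with the block, SE 0.05 and adjusted p 0.131, the smallest among members). NDUFA1, which takes part in assembly of the membrane arm, had 128, 138 and 169 CPM in KD and 122, 122 and 135 CPM in NC, a log2 fold change of 0.20 (SE 0.13; with the block, edgeR quasi-likelihood adjusted p 0.390), the difference being widest in replicate 3.

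NDUFS5, with the highest level by merged exons, had 134, 162 and 166 CPM in KD and 124, 157 and 163 CPM in NC, a log2 fold change of 0.06 (SE 0.14). NDUFA13, with shared coding sequence, had 77, 84 and 67 counts in KD and 77, 112 and 95 counts in NC, or 4.33, 3.30 and 3.52 CPM in KD and 4.79, 4.87 and 4.15 CPM in NC, a log2 fold change of -0.31 (SE 0.27; adjusted p 1.00 in the edgeR quasi-likelihood test). KD replicate 1 lay inside the NC range. Of the 29 members whose coding sequence is not shared, 25 had an estimate above 0, with a median of 0.08 and a range of -0.05 to 0.25; of the 7 with shared coding sequence 3 did, with a range of -0.73 to 0.08.

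**Figure D4:**
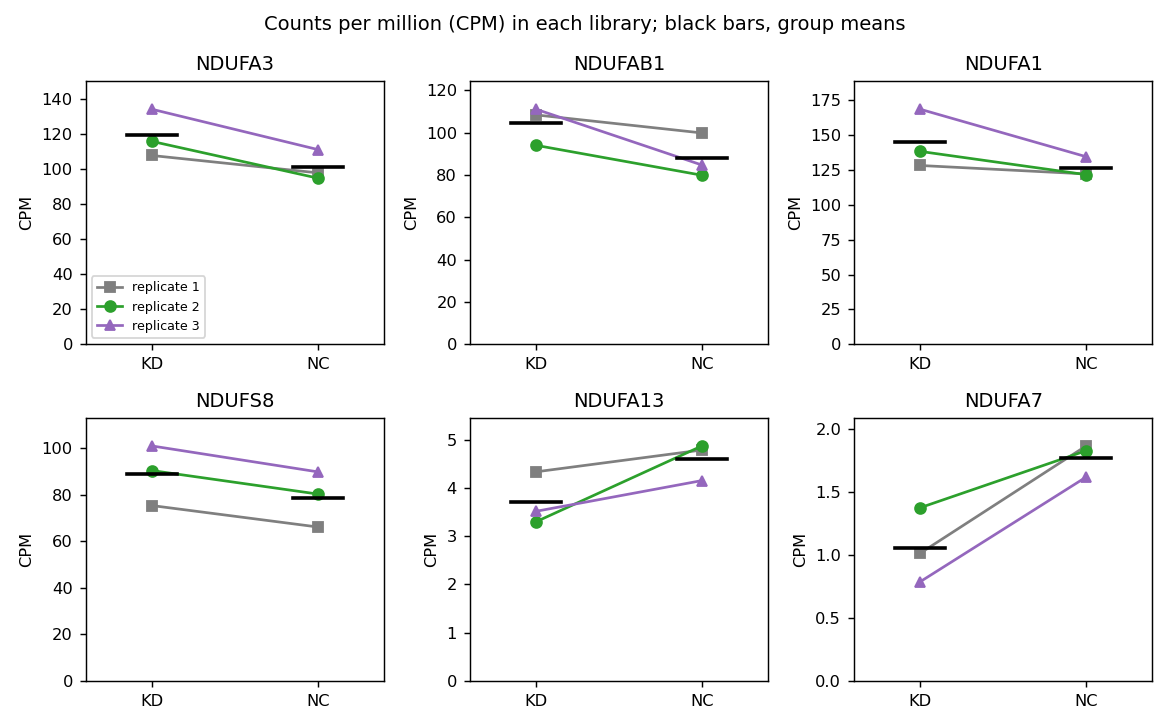
CPM (y axis, from 0) of 6 members in each library, KD on the left and NC on the right; lines join libraries of the same replicate number and black bars are group means (n = 3). NDUFA3, NDUFAB1, NDUFA1 and NDUFS8 are higher in KD within each number, NDUFA13 and NDUFA7 lower, and none passed the test.

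The other genes of the complex were read from the same fit. Of the 17 assembly factors, which build complex I and do not stay in it, 0 passed in either direction with or without the block, 10 had an estimate above 0, and the median log2 fold change was 0.04. NDUFAF3, which helps to build the ubiquinone-reducing part, had 69.3, 68.6 and 80.9 CPM in KD and 64.8, 64.6 and 68.2 CPM in NC, a log2 fold change of 0.15 (edgeR quasi-likelihood adjusted p 1.00). All 3 KD libraries were above all 3 NC libraries, as for 1.67% of tested genes. NDUFAF2, an assembly factor that resembles NDUFA12, had 30.4, 42.6 and 42.1 CPM in KD and 27.2, 38.3 and 35.6 CPM in NC, with overlap, a log2 fold change of 0.19.

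The 7 subunits encoded by mitochondrial DNA varied more between libraries than the median nuclear member. None passed, with or without the block. Within replicates 1, 2 and 3 their median log2 differences between KD and NC were 0.25, -0.60 and 0.87, where the nuclear members had 0.06, 0.07 and 0.07. MT-ND1, a core subunit of the membrane arm next to the ubiquinone site, had 6264, 4405 and 6092 CPM in KD and 5094, 6357 and 3078 CPM in NC, a log2 fold change of 0.21 (edgeR quasi-likelihood adjusted p 1.00). MT-ND3 had 1166, 766 and 1170 CPM in KD and 1034, 1018 and 662 CPM in NC, a log2 fold change of 0.19. Both were higher in KD in replicates 1 and 3 and lower in replicate 2. Per kilobase, the mitochondrially encoded subunits had levels of 486 to 5455, against 1.00 to 276 for the nuclear members, and their coefficients of variation over the 6 libraries were 21.7% to 32.4%, against a median of 12.9% for the nuclear members. In replicate 3, where the difference was widest, NC was the lowest of the 6 libraries for 6 of the 7 subunits, while KD was the highest for 1. Mitochondrial genes took 10.7% of the gene counts of KD replicate 3, of which ribosomal RNA made 6.79%; without that RNA the share was 3.94% there and 2.36% in NC replicate 3, against 2.91% to 5.50% in the other 4 libraries.

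**Figure D5:**
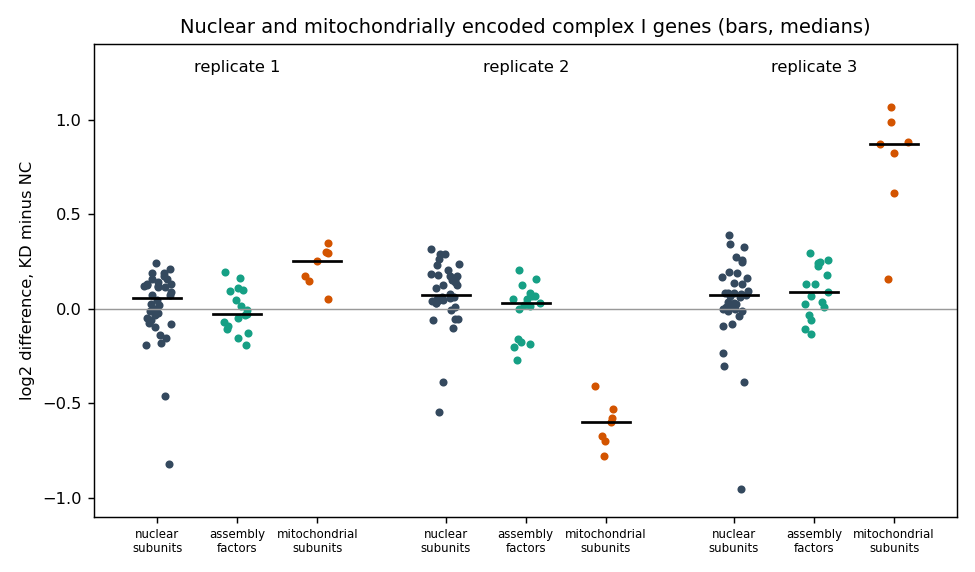
Log2 difference of KD minus NC (y axis) within each replicate number for the 36 nuclear subunits, 17 assembly factors and 7 mitochondrially encoded subunits; points are genes and bars are medians. The medians of the mitochondrial subunits are -0.60 in replicate 2 and 0.87 in replicate 3, while the medians of the nuclear subunits stay at 0.06 to 0.07.

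Processed copies of the members took few reads. The table lists 55 pseudogenes named after a member, of which 9 had 0 counts in all 6 libraries and 1, NDUFV2P1, passed the filter on low counts. All 55 together had 35 to 254 counts in a library, against 38582 to 76245 for the members. Among pseudogenes with counts outside replicate 1, the level in replicate 1 was a median of 8.53 times that in the other libraries. NDUFV2P1 had 1.24, 0.432 and 0.577 CPM in KD and 0.995, 0.652 and 0.787 CPM in NC, a log2 fold change of -0.12 (edgeR quasi-likelihood adjusted p 1.00). Counts of a copy and its parent are uncertain where their sequences are near-identical.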

How the data were processed

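Total RNA of 6 SEM libraries was sequenced. Each library has 1 deposited file of raw counts by Ensembl gene ID. The submitters' processing notes name STAR 2.7.10a, HTSeq 0.11.1, FastQC 0.11.8, DESeq2 and the build hg38. The sources used here do not give the annotation release, strand setting or counting mode. Genes held 33.5% to 60.2% of the records; the rest, in 5 summary lines that name no gene, stayed out of library sizes and tests.

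Of 62703 IDs, 62686 were in the gene name table. Coordinates, lengths and overlaps come from GENCODE 29 (GRCh38, 58220 IDs), not known to be the annotation used for counting. edgeR 4.0.16 in R 4.3.3 was run on all genes (filterByExpr, TMM, robust quasi-likelihood fit, group as the only term, Benjamini-Hochberg adjusted p under 0.05) and tested on simulated data; log2 fold changes are KD over NC, SE is the fold change over the root of F, and intervals are 95%. DESeq2 1.42.0 was an alternative. CPM use TMM-scaled sizes of the tested genes; differences within a number use log2 CPM with a prior count of 2. Sequences are from RefSeq and GENCODE 29.

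No 2 libraries of a group were alike within sampling noise (chi-square over degrees of freedom, 22.6 to 91.1). Nothing in the labels says that the replicates came from separate cultures beyond calling them independent, so p-values measure the spread between these samples, which may be technical. Deviations from group means correlated at 0.89, 0.62 and 0.61 between KD and NC libraries numbered 1, 2 and 3. The numbers come from the titles and were taken as pairs. The values for numbers 2 and 3 cannot show that these are pairs. Each group mean includes replicate 1, which differed from the others in both groups, so its deviation enters theirs with the opposite sign. Correlations between libraries of unlike number were not set beside these values. Whether libraries numbered 2 and 3 belong together across groups was not tested, and results with the block rest on this pairing. The members, lists, tests and naming rule were chosen with earlier results of these data known. Named in full were, per role, the 2 members with the smallest p with and without the block and the highest and lowest level, the 3 highest and 3 lowest fold changes, and 2 genes per further list by the smallest p without the block. Totals of 14750579 to 26694160 counts limit the precision for low members.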

Additional observations from a re-analysis of the deposited data

How the results depend on the processing

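The number of members called was 0 under each of the 19 alternatives run. Over all genes 0 were called without the block, against 29 with the replicate block, 1 with DESeq2, 27 with DESeq2 and the replicate block, and 29, 26 and 29 with the replicate block and RLE, protein-coding TMM or upper-quartile scaling (these 3 were chosen after seeing the data). Leaving out each pair in turn with the replicate block gave 9 to 48 calls, and leaving out each library without it 0. The replicate block changed no call of a member. The members' median log2 fold change was 0.07 with the block and ranged from -0.034 (without NC replicate 1) to 0.18 (without KD replicate 1) when libraries were left out, and from 0.05 to 0.07 over pairs left out with the block. It was 0.06 to 0.08 under the other scalings, DESeq2 and no filter, and 0.08 without the 7 members with shared coding sequence. Signs changed for 3 named members: NDUFV1 stood at -0.0018 with protein-coding TMM, -0.0073 with no filter and -0.0010 with the block and protein-coding TMM, at -0.17 to 0.18 over libraries left out and -0.033 to 0.035 over pairs left out with the block, NDUFS6 at -0.11 to 0.21 and NDUFS5 at -0.055 to 0.15 over libraries left out. The cause was not tested. Levels of the 36 members with the longest transcript as length correlated with those by merged exons at Spearman's rho 0.97, those with unshared exon length at 0.99 and those without replicate 1 at 1.00, but 17 members were over 1.5 times as high with the longest transcript and 6 with unshared length. NDUFA12 then had 180.3 and NDUFA3 114.4 with the longest transcript. With unshared length and the CPM of the whole gene, NDUFA1 passed NDUFS5, at 319 against 276. Low members such as NDUFA7, at 15 to 42 counts, limit what depth can show.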
